A study of Mus musculus with 8 samples.

Results

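Astrocyte genes were followed here as a set of 37 genes, chosen by symbol as markers and functional genes of astrocytes, with earlier results of these data known. All 37 were among the 13130 genes of the deposited gene table, and 83 of the 24526 deposited transcripts belonged to them. The tissue was orbital frontal cortex from C57BL/6 mice aged 12 weeks. A knockdown group of 4 libraries received short hairpin RNA labelled sh-circHomer1/sh-Homer1b, and a control group of 4 libraries received a scrambled hairpin (sh-scramble). The labels do not say how the hairpins were delivered, which cells took them up, or whether each library came from its own animal, so p-values measure only the spread between these libraries.

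Astrocytes are the glial cells that take up neurotransmitter at synapses, convert glutamate to glutamine, buffer potassium, move water at the blood vessels and couple to each other through gap junctions. They also supply lipoproteins, antioxidants and metal-binding metallothioneins, and store the glycogen of the brain. Notch signalling through Hes5, and the transcription factor Sox9, are known for their part in making astrocytes during development and remain on in the adult cell.

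All 37 genes were measured in every library, with a mean level per gene from 3.84 FPKM (Vim) to 378 FPKM (Glul) over the 8 libraries. FPKM counts fragments per kilobase of transcript, relative to all mapped fragments of a library. The defining markers Aqp4, Gfap, Slc1a2, Slc1a3 and Aldh1l1 were present in all libraries. Other cells express some members too, among them Clu, Apoe, Id2 and Vim. Of 14 markers of cortical excitatory neurons 14 were listed. Slc17a7, the vesicular glutamate transporter, had a mean of 128 ± 20.9 FPKM in controls (SD, n = 4). Of 20 striatal projection neuron markers 18 were listed too, so being listed cannot check the tissue label. Homer1, the gene named in both hairpin labels, read 23.5, 26.3, 21.3 and 18.9 FPKM in the control libraries and 18.9, 16.5, 16.6 and 19.3 FPKM in the knockdown libraries. The groups overlapped, and the log2 difference of -0.31 ± 0.10 (SE) did not pass (limma, adjusted p = 0.274). This gene row does not single out circHomer1 or Homer1b, so the knockdown of either was not measured by it. Summed gene FPKM ran from 214316 to 224323 per library, and read depth is unknown.

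The mean on the log2(FPKM + 1) scale was higher in the knockdown group for 32 of the 37 astrocyte genes. It was lower for 5 (Slc4a4, Id2, Id4, S100b and Dio2, whose mean in plain FPKM was slightly higher). The 32 genes are 86.5% of the set, beside 54.9% of the 13004 genes tested. Under quantile normalization 31 were higher, Glul being the exception. The median log2 difference, knockdown minus control on the log2(FPKM + 1) scale, was 0.15 over the set and 0.01 over all genes tested. No astrocyte gene passed an adjusted p under 0.05, and neither did any of the 13004 genes, a background of 0.0% (limma, Benjamini-Hochberg). The smallest adjusted p was 0.266, both in the set and over all genes. At an unadjusted p under 0.05, 6 members were higher (Gja1, Hes5, Sox9, Mt3, Ntsr2 and Mt2) and 0 were lower, where 9.1% of all genes were higher and 5.07% lower by the same limma test. Counted in both directions, the share was 16.2% of the astrocyte genes and 14.2% of all genes tested, so the set did not stand out by that count. Without control replicate 3 the member count was 3, and over all genes 1442 passed in place of 1842. Under median-of-ratios rescaling the member count was again 6. Over all genes 960 were then higher and 840 lower, in place of 1183 and 659.

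Knockdown replicate 4 stood apart from the other libraries. It was the highest of the 8 libraries for 31 of the 37 genes (83.8%), against 28.4% of all genes tested, and the lowest for 0 of them, against 20.8%. The mean deviation of the 37 genes from their own means was 0.33 on the log2 scale in knockdown replicate 4. It was 0.02, -0.08 and 0.05 in knockdown replicates 1 to 3, and 0.02, -0.07, -0.13 and -0.15 in control replicates 1 to 4. Control replicate 4 was the lowest library for 13 genes (35.1%, against 12.8% of all genes tested) and control replicate 3 for 9 (24.3%, against 8.14%). Apart from knockdown replicate 4, the groups overlapped on this measure. The summed level of the 37 genes told the same: 2119 to 2369 FPKM in controls, 2203 to 2434 FPKM in knockdown replicates 1 to 3, and 2757 FPKM in knockdown replicate 4. In bulk tissue FPKM are relative, so astrocyte number, RNA per astrocyte and the amount of other material cannot be told apart.

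**Figure D1:**
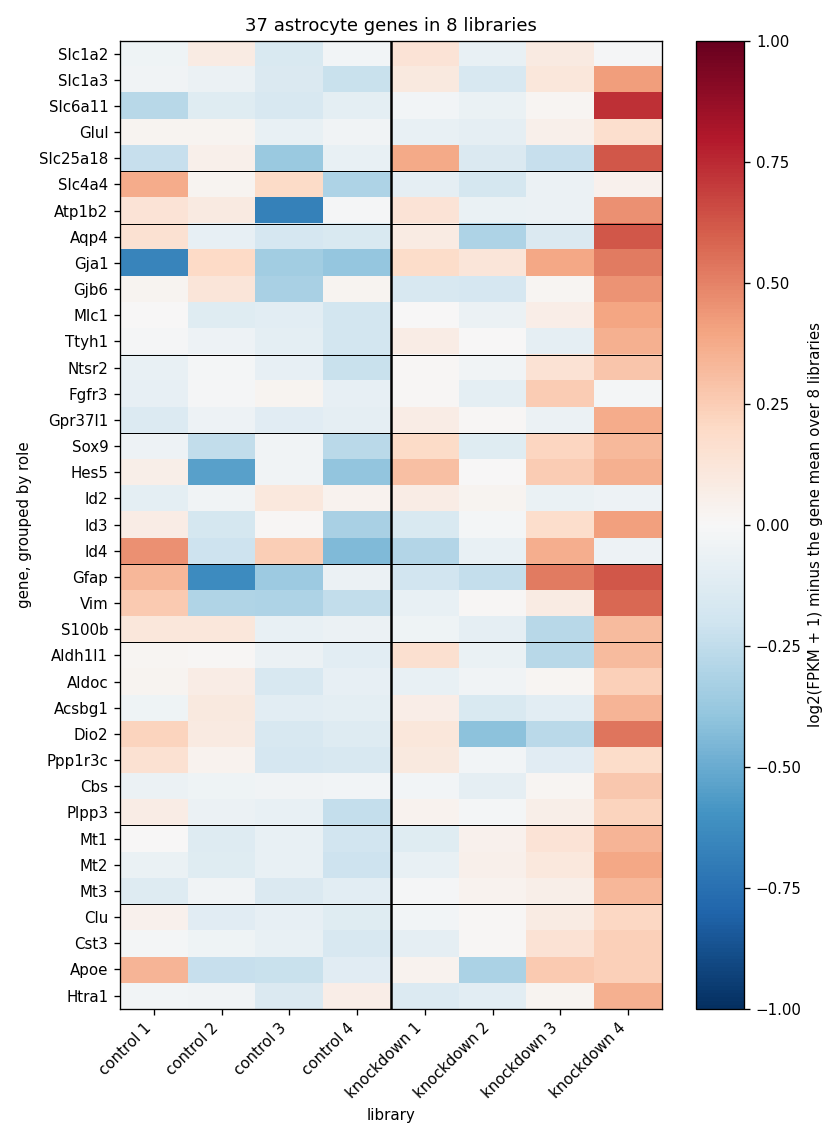
Deviation of each of the 37 astrocyte genes (rows, grouped by role) from its mean over the 8 libraries (columns), on the log2(FPKM + 1) scale; red is above the mean and blue below. The column of knockdown replicate 4 is red for nearly every gene, with a mean deviation of 0.33, while knockdown replicate 2 and control replicates 2 to 4 are mostly pale blue.

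Without knockdown replicate 4 the median log2 difference of the set was 0.09 (0.01 over all genes tested), and 27 of 37 genes were higher (73.0%, against 53.7% of all genes). The count at an unadjusted p under 0.05 was again 6, or 16.2%, where 10.9% of all genes passed in the same fit (limma). Of these 6, Gja1, Hes5, Sox9, Mt2 and Mt3 were also among the 6 with all libraries, Ntsr2 was not, and Slc6a11 took its place. Aqp4, Glul, Gjb6, Aldh1l1, Acsbg1 and Htra1 were higher with all 8 libraries and lower without knockdown replicate 4. The plot of differences with and without this library shows the open points left of the filled ones for most genes.

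**Figure D2:**
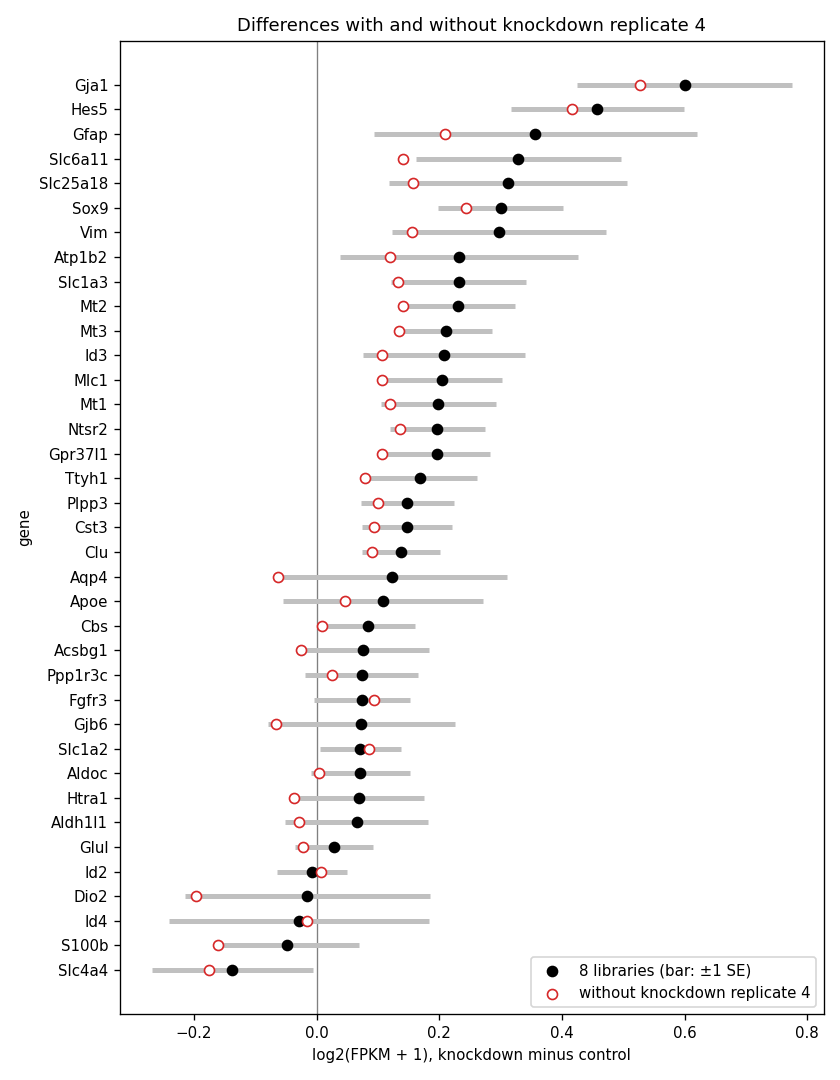
Log2 difference, knockdown minus control, of each astrocyte gene (rows, ordered by size) with all 8 libraries (filled points, bars of 1 SE) and without knockdown replicate 4 (open red points). Gja1 and Hes5 lie at 0.60 and 0.46 with all libraries and at 0.53 and 0.42 without that library, whereas Slc6a11 moves from 0.33 to 0.14 and Aqp4 from 0.12 to -0.06.

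Markers of other cells and regions also varied between libraries. Of 14 olfactory bulb and ensheathing glia markers, 12 were in the table (Omp and Tbx21 were not) and 11 were tested. Their mean deviation was 1.08 in knockdown replicate 4 and between -0.23 and -0.08 in the other libraries. Calb2, a calcium-binding protein of olfactory bulb neurons among others, read 33.6 FPKM there and 2.85 to 5.24 FPKM elsewhere. Cdhr1, a cadherin of mitral and tufted cells, read 9.93 FPKM against 0.421 to 1.05 FPKM. Fabp7, a fatty acid binding protein of radial glia, olfactory glia and some astrocytes, read 19.1 FPKM against 4.13 to 7.30 FPKM. The list's summed level was 533 to 612 FPKM in controls and 459 to 652 FPKM in knockdown libraries. Meningeal fibroblast markers (8 of 12 in the table, 6 tested) deviated by 0.53 in knockdown replicate 4 and by -0.25 to 0.02 elsewhere (Col1a1, Col3a1, Lum and Slc13a4 were not in the table), with a summed level of 7.28 to 9.47 FPKM in controls and 5.79 to 18.1 FPKM in knockdown libraries. Striatal projection neuron markers (18 of 20 in the table) had lower log2 means in the knockdown group in 18 of 18 genes tested. Of these, 3 were at an unadjusted p under 0.05 (limma). The striatal markers had a median log2 difference of -0.87, and of -0.51 without knockdown replicate 4. They deviated by 0.99, 0.40, 0.84 and -0.62 in control replicates 1 to 4 and by -0.71, 0.03, 0.30 and -1.23 in knockdown replicates 1 to 4, so both groups varied widely, with a summed level of 272 to 904 FPKM in controls and 181 to 534 FPKM in knockdown libraries. Oligodendrocyte markers (14 of 14 in the table) also had lower log2 means in all 14, with 0 at that p. Their median was -0.23 (-0.06 without knockdown replicate 4). They deviated by -0.07 to 0.28 in controls and by -0.41, 0.21, 0.36 and -0.62 in knockdown replicates 1 to 4, with a summed level of 981 to 1234 FPKM in controls against 660 to 1329 FPKM. With the striatal or the oligodendrocyte marker level as a covariate, the median log2 difference of the astrocyte genes was 0.12 or 0.11. The part of the bulb and meningeal markers in the astrocyte values was not tested.

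The glutamate and GABA group held 5 genes, all with a higher mean in the knockdown group (Glul was lower under quantile normalization) and a median log2 difference of 0.23 (0.13 without knockdown replicate 4). None passed an unadjusted p under 0.05 with all libraries (limma). Slc6a11 (ENSMUSG00000030307.8, chromosome 6, 114131241 to 114249952, plus strand, GRCm38) encodes the GABA transporter GAT-3 of astrocytes. It read 18.2, 20.4, 19.8 and 20.7 FPKM in controls and 21.8, 21.2, 22.6 and 37.5 FPKM in knockdown libraries. Every knockdown library lay above every control library, by little in the first 3 and by far in the last. Its log2 difference was 0.33 ± 0.17 (SE; limma, adjusted p = 0.404) and 0.14 without knockdown replicate 4. With the striatal marker level as a covariate it was 0.13. Groups without overlap were seen in 2 of 37 members, Slc6a11 and Mt3, with the knockdown group higher, and in 0 with it lower. Of all genes tested, 5.93% separated upward and 3.22% downward. With 1 library left out the count lay between 2 and 7, with 7 without control replicate 1 or knockdown replicate 2. Fewer libraries make it easier for groups not to overlap. Without knockdown replicate 4, 2 members and 944 of all genes tested separated upward, against 771 genes with all 8 libraries. For the other libraries left out no share over all genes was counted. Those member counts can therefore not be set beside 5.93% and 3.22%.

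Slc1a3, the glutamate transporter GLAST, read 48.2, 47.5, 44.6 and 42.2 FPKM in controls and 52.9, 44.1, 53.7 and 66.2 FPKM in knockdown libraries. The groups overlapped through knockdown replicate 2 (0.23 ± 0.11; limma, adjusted p = 0.380). Slc1a2, the main glutamate transporter of the forebrain, stood apart from the rest of its group in that knockdown replicate 4 was not its highest library. Its means were 164 ± 10.8 FPKM in controls and 172 ± 11.5 FPKM in knockdown libraries (SD, n = 4 each). Glul, the glutamine synthetase, read 374 ± 13.3 and 382 ± 31.8 FPKM. Its listed transcripts share 10.9% of their 50-base words with the pseudogene Glns-ps1, so its level is uncertain by what the quantification made of such reads. Slc25a18, a mitochondrial glutamate carrier, read 14.9 ± 2.01 and 19.2 ± 5.74 FPKM, with its highest values in knockdown replicates 1 and 4.

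Ion transport was represented by 2 genes that differed in sign. Atp1b2, a beta subunit of the sodium-potassium pump, read 76.3, 74.1, 43.1 and 68.7 FPKM in controls and 76.5, 66.3, 66.5 and 95.5 FPKM in knockdown libraries. Control replicate 3 was low and knockdown replicate 4 high, and the other 6 libraries lay between 66.3 and 76.5 FPKM (0.23 ± 0.19; limma, adjusted p = 0.600). Slc4a4, the sodium bicarbonate cotransporter, read 20.2, 15.7, 17.7 and 12.3 FPKM in controls and 14.5, 13.5, 14.8 and 15.9 FPKM in knockdown libraries. The controls spread over the whole range of the knockdown group (-0.14 ± 0.13; limma, adjusted p = 0.646).

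Among the 5 genes of water flow, gap junctions and membrane, all with a higher knockdown mean and a median of 0.17 (0.08 without knockdown replicate 4), Gja1 had the largest difference of the 37 astrocyte genes. Gja1 (ENSMUSG00000050953.10, chromosome 10, 56377330 to 56402513, plus strand) encodes the main connexin of astrocyte gap junctions. It read 7.15, 13.8, 9.13 and 8.85 FPKM in controls and 13.6, 13.0, 15.8 and 17.5 FPKM in knockdown libraries. Control replicate 2 reached the level of knockdown replicates 1 and 2, and the other 3 controls lay below every knockdown library. The ratio of the means was 1.54, and the log2 difference 0.60 ± 0.17 (SE; limma, unadjusted p = 0.00831, adjusted p = 0.266). With each library left out in turn the difference stayed between 0.48 and 0.77, and without knockdown replicate 4 it was 0.53. The second gap junction gene, Gjb6, read 10.9 ± 1.53 and 11.7 ± 2.73 FPKM, and its log2 difference of 0.07 became -0.07 without knockdown replicate 4.

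Mlc1, a membrane protein of astrocyte endfeet, read 36.3, 33.1, 33.5 and 31.8 FPKM in controls and 36.3, 34.6, 38.0 and 48.0 FPKM in knockdown libraries. Only knockdown replicates 3 and 4 lay clear of all controls (0.20 ± 0.10; limma, adjusted p = 0.380). Aqp4, the water channel of the endfeet, read 13.4 ± 1.53 and 15.2 ± 4.88 FPKM, with 22.1 FPKM in knockdown replicate 4 and 11.1 to 15.7 FPKM in all other libraries. Ttyh1, a tweety family anion channel, read 32.1 ± 1.67 and 36.4 ± 5.20 FPKM.

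The 3 receptor genes had higher knockdown means, with a median of 0.20 (0.11 without knockdown replicate 4). Ntsr2, a neurotensin receptor of astrocytes, read 18.0, 18.8, 17.9 and 16.2 FPKM in controls and 19.1, 18.5, 21.1 and 23.3 FPKM in knockdown libraries. Knockdown replicate 2 lay among the controls (0.20 ± 0.08; limma, unadjusted p = 0.0333, adjusted p = 0.322). Gpr37l1, a G protein-coupled receptor enriched in astrocytes, read 40.7, 43.4, 41.4 and 42.0 FPKM in controls and 47.3, 45.3, 42.9 and 58.2 FPKM in knockdown libraries, overlapping by knockdown replicate 3 (0.20 ± 0.09; limma, adjusted p = 0.354). Fgfr3, a fibroblast growth factor receptor, read 5.99 ± 0.265 and 6.39 ± 0.816 FPKM, and its highest library was knockdown replicate 3.

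The 5 transcription regulators split. Hes5 (ENSMUSG00000048001.7, chromosome 4, 154960923 to 154962371, plus strand), a repressor switched on by Notch, read 7.19, 4.39, 6.64 and 4.96 FPKM in controls and 8.65, 6.88, 8.36 and 9.04 FPKM in knockdown libraries. Control replicate 1 exceeded knockdown replicate 2, and all other controls lay below every knockdown library. The ratio of the means was 1.42 and the log2 difference 0.46 ± 0.14 (SE; limma, unadjusted p = 0.0111, adjusted p = 0.268), with 0.42 left without knockdown replicate 4. Sox9 (ENSMUSG00000000567.5, chromosome 11, 112782224 to 112787760, plus strand) read 7.34, 6.28, 7.45 and 6.17 FPKM in controls and 8.84, 6.96, 9.01 and 9.79 FPKM in knockdown libraries. Knockdown replicate 2 again lay within the controls (0.30 ± 0.10; limma, unadjusted p = 0.0169, adjusted p = 0.290), and the difference was 0.24 without knockdown replicate 4.

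The Id proteins, which block basic helix-loop-helix factors, differed in sign. Id2 was near level at 50.1 ± 3.13 FPKM in controls and 49.8 ± 2.33 FPKM in knockdown libraries. Id4 read 27.7 ± 8.02 and 26.7 ± 5.47 FPKM, with both its extremes, 36.9 and 19.3 FPKM, among the controls. Id3 read 8.79 ± 1.20 and 10.4 ± 1.96 FPKM (0.21 ± 0.13; limma, adjusted p = 0.490).

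**Figure D3:**
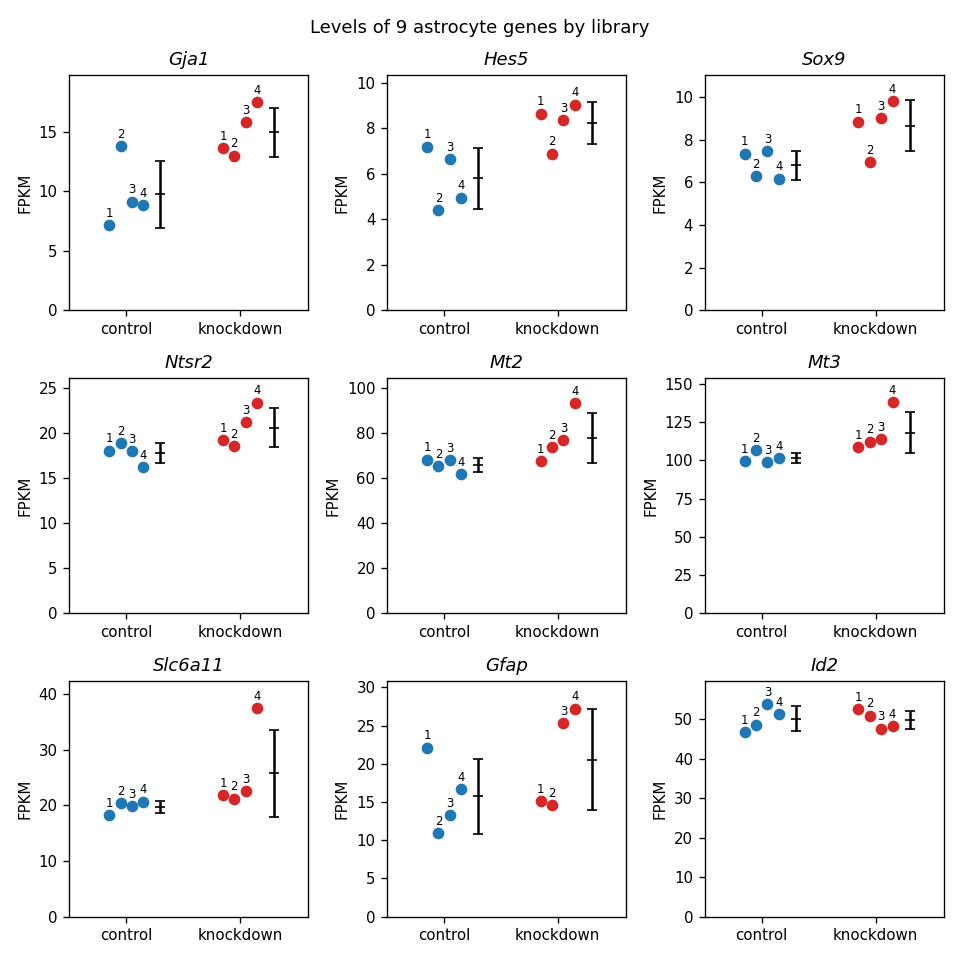
FPKM of 9 astrocyte genes in control (blue) and knockdown (red) libraries; each point is a library with its replicate number, and the black mark gives the mean with its SD (n = 4). Mt3 and Slc6a11 are the only 2 of the 37 genes with every knockdown library above every control library; Gfap spreads from 10.9 to 22.1 FPKM within the controls, and Id2 is level.

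Of the filament and calcium-binding genes, Gfap, the intermediate filament that marks fibrous and reactive astrocytes, read 22.1, 10.9, 13.3 and 16.7 FPKM in controls and 15.1, 14.6, 25.3 and 27.2 FPKM in knockdown libraries. Knockdown replicates 1 and 2 lay inside the control range (0.36 ± 0.26; limma, adjusted p = 0.551). Vim, the filament vimentin, read 4.69, 2.83, 2.82 and 3.0 FPKM in controls and 3.50, 3.76, 4.03 and 6.05 FPKM in knockdown libraries. Control replicate 1 stood far above the other controls (0.30 ± 0.17; limma, adjusted p = 0.460). S100b, a calcium-binding protein, read 72.8 ± 5.17 and 71.0 ± 12.9 FPKM, and its log2 difference of -0.05 became -0.16 without knockdown replicate 4.

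The 7 metabolic genes had small differences, with a median of 0.07 and of 0.00 without knockdown replicate 4. Plpp3, a lipid phosphate phosphatase, read 70.3, 64.2, 63.2 and 56.4 FPKM in controls and 68.3, 66.0, 69.6 and 77.8 FPKM in knockdown libraries (0.15 ± 0.08; limma, adjusted p = 0.408). The knockdown libraries except the last lay within the control range. Cbs, cystathionine beta-synthase of the transsulfuration pathway, had the tightest controls, at 5.80, 5.87, 5.92 and 5.98 FPKM in controls and 5.97, 5.67, 6.19 and 7.55 FPKM in knockdown libraries (0.08 ± 0.08; limma, adjusted p = 0.626). Aldoc, the brain aldolase, read 124 ± 9.25 and 131 ± 13.2 FPKM. Aldh1l1, a folate enzyme used as a general astrocyte marker, read 7.91 ± 0.372 and 8.43 ± 1.66 FPKM, and Acsbg1, an acyl-CoA synthetase, 28.8 ± 2.0 and 30.7 ± 5.08 FPKM. Ppp1r3c, which targets a phosphatase to glycogen, read 11.3 ± 1.34 and 12.0 ± 1.18 FPKM. Dio2, the deiodinase that activates thyroid hormone, read 12.8 ± 1.77 and 13.1 ± 4.30 FPKM. Its log2 difference was -0.02 with all libraries and -0.20 without knockdown replicate 4.

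The metallothioneins, small cysteine-rich proteins that bind zinc and copper, were the role group whose members differed by the most alike amounts, from 0.20 to 0.23 on the log2 scale, and their median without knockdown replicate 4 was 0.13. They lie side by side on chromosome 8, with 18517 bases between Mt3 (ENSMUSG00000031760.9, 94152607 to 94154146) and Mt2 (ENSMUSG00000031762.7, 94172664 to 94173568), and 5513 bases between Mt2 and Mt1 (ENSMUSG00000031765.8, 94179082 to 94180327), all on the plus strand. Mt3, the form found mainly in brain, read 99.6, 106, 98.6 and 102 FPKM in controls and 108, 112, 114 and 138 FPKM in knockdown libraries. All 4 knockdown libraries lay above all controls (0.21 ± 0.08; limma, unadjusted p = 0.0220, adjusted p = 0.298), and the difference was 0.13 without knockdown replicate 4. Mt2, which is widely expressed and induced by metals and glucocorticoids, read 68.3, 65.5, 68.0 and 61.8 FPKM in controls and 67.6, 73.9, 77.0 and 93.5 FPKM in knockdown libraries. Knockdown replicate 1 lay within the controls (0.23 ± 0.09; limma, unadjusted p = 0.0347, adjusted p = 0.325). Mt1 read 58.4 ± 3.44 and 67.5 ± 9.14 FPKM (SD, n = 4 each; limma, adjusted p = 0.377).

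Promoter sequences are shown for these 3 genes and for Hes5, because metallothionein genes are the classic targets of the metal-responsive factor MTF-1 and Hes5 of the Notch effector RBPJ. Each is 300 bases, from 250 before to 50 after the RefSeq transcript start on GRCm38.p6, 5′ to 3′ on the plus strand; the RefSeq starts of Mt1 and Mt2 are not those of the deposited gene rows. Capitals mark the metal response element core, TGCACNC or TGCGCNC on either strand, in the metallothioneins, and the RBPJ core, TGGGAA on either strand, in Hes5.
Mt1 (chr8:94178839-94179138): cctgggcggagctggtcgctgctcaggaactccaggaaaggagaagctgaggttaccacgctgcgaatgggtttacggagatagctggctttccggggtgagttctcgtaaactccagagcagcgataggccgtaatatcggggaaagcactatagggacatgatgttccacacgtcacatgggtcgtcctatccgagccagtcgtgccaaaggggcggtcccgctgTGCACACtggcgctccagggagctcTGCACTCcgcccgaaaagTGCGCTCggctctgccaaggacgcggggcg
Mt2 (chr8:94172368-94172667): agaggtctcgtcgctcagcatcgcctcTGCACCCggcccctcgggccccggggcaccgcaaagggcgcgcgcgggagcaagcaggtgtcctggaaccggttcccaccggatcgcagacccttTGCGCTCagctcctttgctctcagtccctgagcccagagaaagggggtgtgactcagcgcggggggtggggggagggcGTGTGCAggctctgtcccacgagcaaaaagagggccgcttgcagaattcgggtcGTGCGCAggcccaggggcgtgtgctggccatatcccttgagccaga
Mt3 (chr8:94152357-94152656): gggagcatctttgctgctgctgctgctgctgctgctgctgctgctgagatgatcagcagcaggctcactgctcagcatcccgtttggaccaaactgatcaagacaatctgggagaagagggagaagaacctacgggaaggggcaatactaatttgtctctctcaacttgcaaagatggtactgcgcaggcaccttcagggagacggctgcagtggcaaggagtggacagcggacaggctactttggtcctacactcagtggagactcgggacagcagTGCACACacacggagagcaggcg
Hes5 (chr4:154960673-154960972): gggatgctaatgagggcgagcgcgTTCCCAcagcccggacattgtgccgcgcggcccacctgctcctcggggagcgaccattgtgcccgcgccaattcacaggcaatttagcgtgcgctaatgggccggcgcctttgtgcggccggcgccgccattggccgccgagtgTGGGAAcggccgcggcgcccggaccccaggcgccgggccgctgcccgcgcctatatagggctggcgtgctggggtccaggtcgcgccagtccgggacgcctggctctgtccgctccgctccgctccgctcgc

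The Mt1 promoter held 3 metal response element cores close to the start, the Mt2 promoter 4 (2 on each strand) and the Mt3 promoter 1, which lies downstream of the start. No matches overlapped within a promoter. RefSeq promoters were matched for 33 of the 37 genes, all but Aqp4, Atp1b2, Sox9 and Clu. The metal core was found in 12 of these 33 (36.4%), among them Slc6a11, Glul and Id3, and in 25.7% of all 32851 promoters of the same length. The RBPJ core was found in 2 places in Hes5, and in 12 of the 33 (36.4%), among them Gfap, Ntsr2 and Mlc1, against 25.6% of all promoters. Both words are short and common, and these matches describe letters, not binding.

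The 4 secreted proteins had a median log2 difference of 0.12 (0.07 without knockdown replicate 4). Clu, the chaperone and lipoprotein clusterin, read 128, 115, 117 and 114 FPKM in controls and 122, 125, 132 and 144 FPKM in knockdown libraries. Control replicate 1 exceeded knockdown replicates 1 and 2 (0.14 ± 0.06; limma, adjusted p = 0.367). Cst3, the protease inhibitor cystatin C, read 342, 336, 330 and 311 FPKM in controls and 325, 349, 382 and 408 FPKM in knockdown libraries, overlapping by knockdown replicate 1 (0.15 ± 0.07; limma, adjusted p = 0.397). Apoe, the main apolipoprotein of the brain, read 196 ± 39.4 and 212 ± 37.3 FPKM, and Htra1, a serine protease, 36.5 ± 2.25 and 38.6 ± 6.49 FPKM.

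The astrocyte genes varied together from library to library. After each group mean was subtracted, the median Pearson correlation over the 666 pairs was 0.57 (8 libraries), and 0.008 over pairs of all genes tested. These points share their library and its composition, and no test was made. A correlation above 0.5 was found in 379 pairs, and above 0 in 569. Without knockdown replicate 4 the median was 0.23, beside 0.007 for all genes, with 187 pairs above 0.5 and 428 above 0. Without any other library it lay between 0.53 and 0.65. The genes most like the rest were Mlc1, Aqp4 and Aldoc, with a median r of 0.79, 0.75 and 0.72 with the other 36 members.

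Some pairs kept their likeness without that library. Aqp4 and Dio2 had r = 0.98 with all 8 libraries and 0.95 without knockdown replicate 4, Mt1 and Mt2 0.97 in both, Ttyh1 and S100b 0.97 and 0.90, and Vim and Clu 0.96 and 0.91. Slc6a11 and Mt3, the 2 genes whose groups did not overlap, went from 0.95 to 0.47. Id2 ran against the set, with a median r of -0.46 (-0.47 without knockdown replicate 4) and its lowest value, -0.77, with Aldoc. Slc1a2, Fgfr3 and Id4 had a median r of -0.03, -0.01 and 0.06. Gja1, with the largest group difference, had a median r of 0.24, and of -0.05 without knockdown replicate 4. Its highest values were 0.60 with Mt3 and 0.60 with Ntsr2 (0.80 and 0.52 without knockdown replicate 4).

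**Figure D4:**
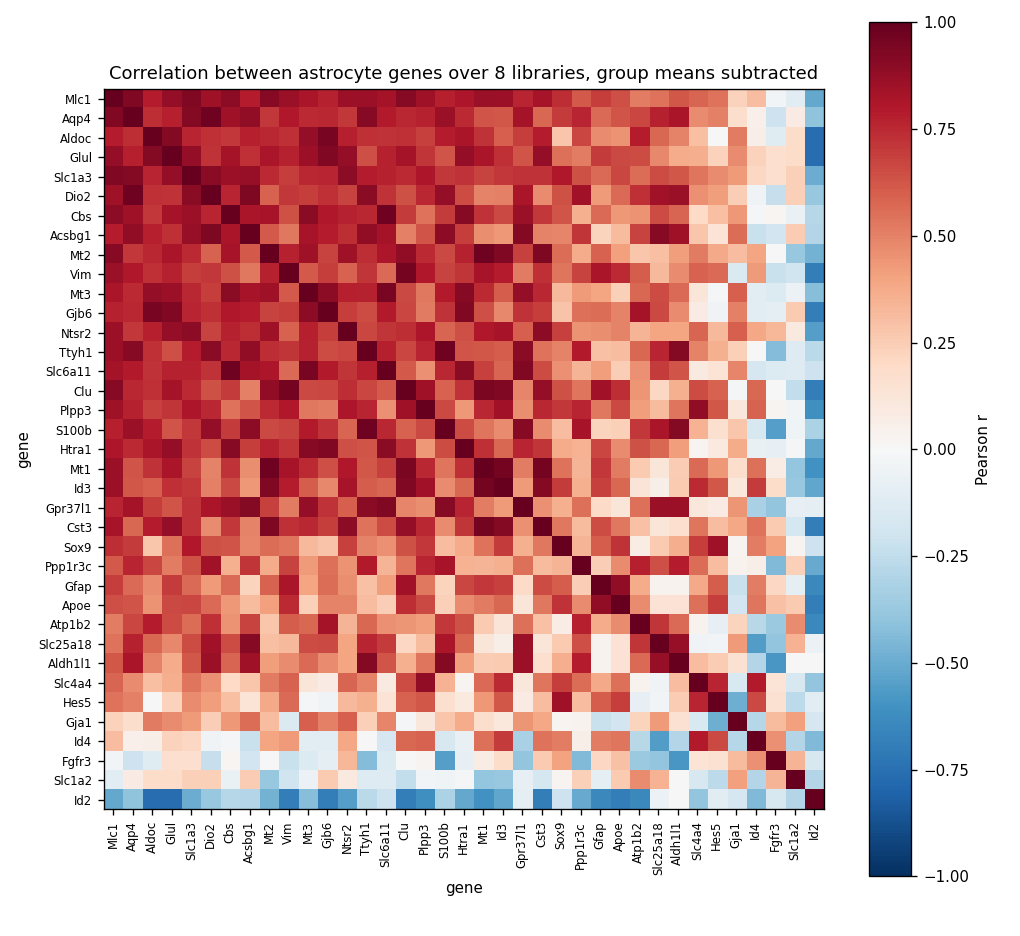
Pearson correlation of log2(FPKM + 1) between the 37 astrocyte genes (rows and columns, ordered by their median correlation with the others) over 8 libraries after each group mean was subtracted. The block from Mlc1 to Cst3 is mostly red, the median over the 666 pairs is 0.57, and Id2 at the far end is blue against most genes.

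The transcript table listed 1 transcript for 15 of the genes and 2 or more for the other 22. Of the 83 transcripts 82 were tested. None passed an adjusted p under 0.05 (limma, smallest adjusted p = 0.565), where 0.0256% of all transcripts tested did. At an unadjusted p under 0.05 there were 8, of which 7 were higher in the knockdown group, and 7.96% of all transcripts passed that threshold. Those of Hes5, Gja1, Mt3, Sox9 and Mt2 were each gene's main or only listed form and had differences like the gene's. Slc1a3-201, the only form listed for Slc1a3, had a log2 difference of 0.33 (limma, unadjusted p = 0.0270, adjusted p = 0.587), above the 0.23 of the gene row. The listed forms of Cbs differed in sign, as did those of other members, Aldoc, Mlc1 and Vim among them. Cbs-202 read 3.04, 3.72, 3.12 and 3.13 FPKM in controls and 3.89, 4.20, 4.31 and 5.73 FPKM in knockdown libraries. Its log2 difference was 0.37 (limma, unadjusted p = 0.0156, adjusted p = 0.565), while that of Cbs-201 was -0.21 (unadjusted p = 0.0506, adjusted p = 0.629). Clu-209 likewise had -0.25 while Clu-201, the form with most of the gene's level, had 0.14.

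Isoform shares of 4 genes jumped between libraries. Id2-201 held 98.9% of the summed listed transcripts of Id2 in control replicate 1, at 88.5 FPKM, and read 0.137 to 15.3 FPKM in the other libraries. Id2-202 did the opposite, at 0.516 FPKM in control replicate 1 and 52.8 to 66.0 FPKM elsewhere. The Id2 gene row stayed between 46.7 and 53.9 FPKM. Apoe-209 read 356, 58.2, 65.4 and 228 FPKM in controls and 267, 152, 320 and 79.8 FPKM in knockdown libraries, and Apoe-205 was high, at 117, 123 and 191 FPKM, in control replicates 2 and 3 and knockdown replicate 4, where Apoe-209 was low. The Apoe gene row ran from 161 to 255 FPKM. Ttyh1-202 read 24.8 FPKM in control replicate 3 and 1.68 to 2.38 FPKM elsewhere. The share of Fgfr3-209 ran from 14.2% to 75.0%. These swings crossed the groups, and none of the 7 transcripts of these genes with a share range over 40 percentage points passed (limma, unadjusted p from 0.335 to 0.996).

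**Figure D5:**
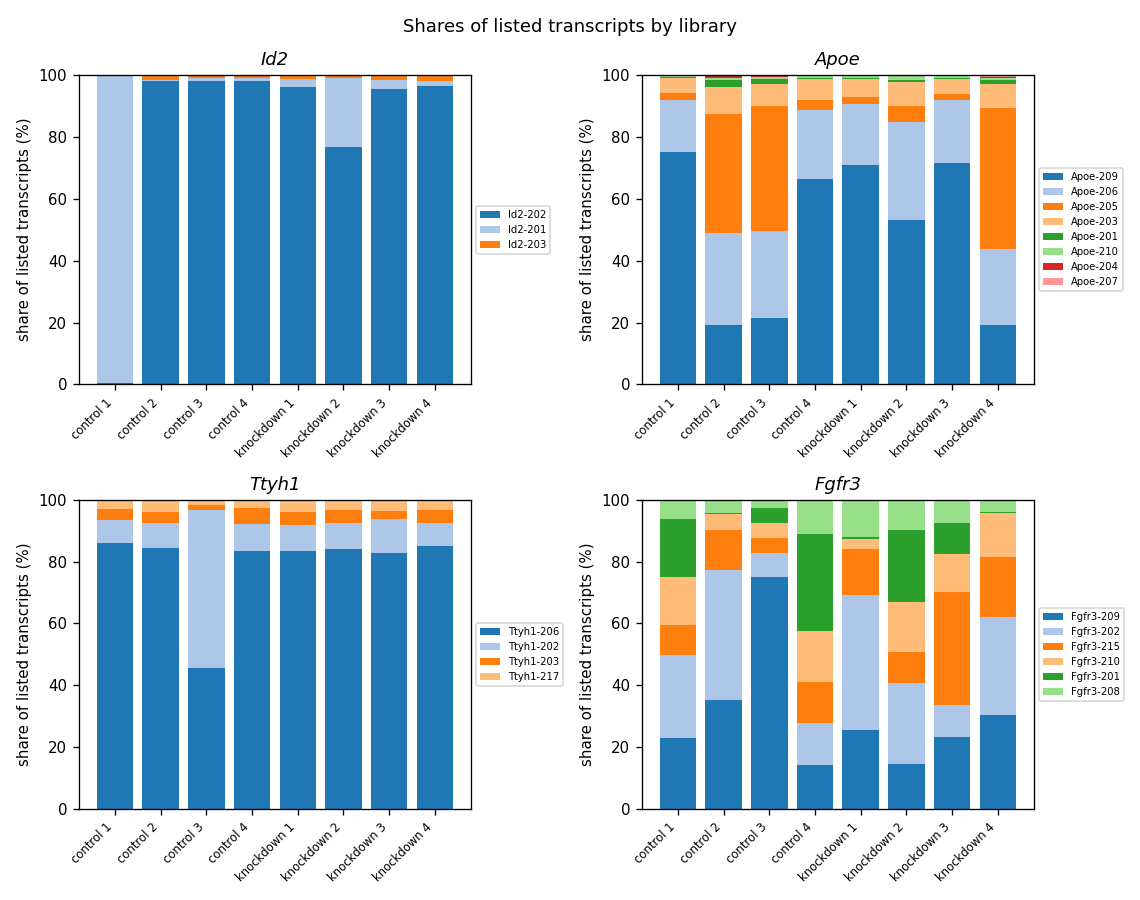
Share of each listed transcript (colours) in the summed listed transcripts of Id2, Apoe, Ttyh1 and Fgfr3, in percent, for the 8 libraries. Id2-201 takes 98.9% in control replicate 1 only, Apoe-205 is high in control replicates 2 and 3 and knockdown replicate 4, and Ttyh1-202 takes 51.0% in control replicate 3.

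Gene rows were not sums of their transcripts: gene value over transcript sum ran from 0.30 for Gja1 to 1.28 for Ttyh1, with a median of 0.84. The level of Gja1 among the astrocyte genes thus depends on the row read, since Gja1-201 alone read 21.2 to 56.6 FPKM. Exons of 10 members overlap a gene on the opposite strand in the GENCODE M21 annotation, among them Hes5, Mt2, Slc1a2 and Slc25a18. The kit was stranded, but whether the quantification used the strand is not stated, so reads of such partners may be in these values.

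Lists of genes outside the set were counted in the same fit, by means on the log2 scale. Over all genes 54.9% had a higher knockdown mean there, and 9.1% were higher and 5.07% lower at an unadjusted p under 0.05 (limma). Of 50 other astrocyte genes, 38 had a higher knockdown mean, with a median log2 difference of 0.10 (0.05 without knockdown replicate 4), and at an unadjusted p under 0.05 (limma) 3 were higher and 1 lower, which is not above the share over all genes. Slc27a1, a fatty acid transport protein, read 11.7 ± 0.557 and 14.4 ± 1.46 FPKM and Abcd2, a peroxisomal fatty acid transporter, 10.1 ± 0.629 and 7.71 ± 1.36 FPKM. Of 38 genes of reactive astrocytes 21 were in the table, 11 higher and 10 lower, with a median of 0.01 that was -0.06 without knockdown replicate 4, and 2 were higher and 0 lower at that p. Tspo, a mitochondrial outer membrane protein, was one of these at 1.72 ± 0.105 and 2.59 ± 0.362 FPKM (adjusted p = 0.266). Lcn2, C3 and Timp1 were among the 17 not in the table.

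Notch signalling genes other than Hes5 were 13 higher and 5 lower of 18, beside 54.9% of all genes higher. At an unadjusted p under 0.05 (limma) 5 were higher and 0 lower, beside 9.1% and 5.07% of all genes. The Fringe glycosyltransferase Mfng, a low gene, read 0.812, 0.615, 0.749 and 0.546 FPKM in controls and 0.973, 1.09, 1.06 and 1.27 FPKM in knockdown libraries (0.32 ± 0.07; limma, adjusted p = 0.266). The ligand Jag2 read 4.71 ± 0.219 and 5.88 ± 0.537 FPKM, Lfng, another Fringe, 5.22 ± 0.399 and 6.29 ± 0.587 FPKM, and the target Heyl 0.492 ± 0.0603 and 0.649 ± 0.0450 FPKM. In Mfng, Jag2, Lfng and Heyl the groups did not overlap, where 5.93% of all genes tested separated upward. They were named for their small p, so this is no separate result. The list's median was 0.13, and 0.06 without knockdown replicate 4. No gene of these lists passed after adjustment.

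BMP signalling acts upstream of the Id proteins, and its list also held Id1. Of the 17 genes of this list tested, 1 was higher at that p (Chrd, an extracellular inhibitor). Lower at that p were 2, Smad4, the shared mediator, and the receptor gene Bmpr2. The list's median was 0.01 (-0.01 without knockdown replicate 4). Of 21 glycogen genes 1 was lower (Gsk3b), and of 25 genes of metal transport and response 1 was higher (Slc39a6) and 2 lower (Slc30a4 and Atp7a), with medians of 0.03 and 0.02. Beside the 9.1% higher and 5.07% lower over all genes, these counts are too small to read a direction from. The zinc exporter Slc30a4 read 16.0 ± 0.517 and 14.0 ± 1.04 FPKM and the zinc importer Slc39a6 8.78 ± 0.476 and 10.7 ± 1.32 FPKM.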

How the data were processed

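Total RNA libraries were made with a stranded kit, per the labels' protocols. The authors deposited 1 table of genes and 1 of transcripts with FPKM values, per the file headers. The submitters' processing notes name HISAT2, StringTie, cutadapt and FastQC but no version; build and annotation are not stated in the sources used here. The IDs and versions of 87.7% of gene rows were in GENCODE M21, all 37 members included, 34 of them with identical coordinates, so GRCm38 is named. FPKM carry no counts, so no counting interval is given.

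Rows with a mean of at least 0.5 FPKM (13004 genes, 23415 transcripts) were tested on log2(FPKM + 1), which understates the change of low genes, with limma 3.58.1 in R 4.3.3 (two-sided, trend and robust empirical Bayes, no block, Benjamini-Hochberg over all rows; threshold 0.05). The fit was tested on simulated data. Members named with every library were the 2 with the smallest p per role, those whose groups do not overlap and those with an outlying library; listed pathway genes were up to 4 with the smallest p, of which some are not named here. Members and lists were chosen with earlier results of these data known. Alternatives covered pseudocount, filter, rescaling, quantile normalization, test settings, library weights, a replicate block, transcript sums, marker covariates, GC content and length, and each library left out. Promoters are from RefSeq.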

Additional observations from a re-analysis of the deposited data

Results flagged for a closer look

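Of 74 group values of the members (37 genes in 2 groups of 4), 2 had a library far from the other 3 of its group; chance marks about 1 in 20 groups. Slc6a11 read 37.5 FPKM in knockdown replicate 4, where the other knockdown libraries read 21.2 to 22.6 FPKM. Vim read 4.69 FPKM in control replicate 1, where the other controls read 2.82 to 3.0 FPKM. The mean log2 deviation of the 11 olfactory bulb and ensheathing glia markers was 1.08 in knockdown replicate 4, apart from the other knockdown libraries at -0.15 to -0.08; its part in the level of Slc6a11 there was not tested.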

How the results depend on the processing

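Over 20 alternatives, 699 of 740 recomputed member differences had the sign reported and 41 the opposite one, in 12 members; 25 members never turned. No member passed an adjusted p under 0.05 in any of them. The members at an unadjusted p under 0.05 (limma) numbered 3 with the striatal score as a covariate, against 6. The count over all 13004 genes fell likewise, to 1003 against 1842. In 1 gene, against 2, the groups did not overlap after correction for GC content and length, where no share over all genes was counted. The median correlation between members was 0.45 by Spearman, against 0.57. Median-of-ratios rescaling and quantile normalization gave 960 higher and 840 lower, and 990 higher and 838 lower genes at that p, against 1183 and 659. After correction for GC content and length these were 650 and 544. The median log2 difference of the members was then 0.08, against 0.15, beside 0.003 over all genes.

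Signs turned to -0.0165 (quantile) and -0.0134 (array weights) for Glul; -0.0368 (striatal covariate) and -0.0339 (oligodendrocyte covariate) for Aqp4; -0.0227, -0.0696 and -0.0210 (array weights, striatal, oligodendrocyte) for Gjb6; -0.1450 (transcript sum) for Ttyh1; 0.0033 and 0.0095 (array weights, GC) for Id2; 0.285, 0.0873 and 0.0284 (striatal, oligodendrocyte, GC) for Id4; -0.0503 and -0.0481 (striatal, oligodendrocyte) for Aldh1l1; -0.0035, -0.0320 and -0.0242 (array weights, striatal, oligodendrocyte) for Acsbg1; 0.0479 (GC) for Dio2; -0.0374 (GC) for Apoe; and -0.0432 and -0.0082 (striatal, GC) for Htra1. The cause was not tested.

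With each library left out in turn, 0 to 2 genes (1 without control replicates 1 or 2 or knockdown replicate 3, 2 without knockdown replicate 4) and 9 to 22 transcripts were called. From 3 (without control replicate 3) to 9 members had an unadjusted p under 0.05 (limma), beside 1199 to 2173 of all 13004 genes. The median correlation ran from 0.23 (without knockdown replicate 4) to 0.65. From 2 to 7 members had groups that do not overlap (4 without knockdown replicate 3, 5 without control replicate 2 or knockdown replicate 1). For most of these settings no share over all genes was counted. Fewer libraries make it easier for groups not to overlap. Differences ran from -0.0215 to 0.0627 for Glul, -0.0635 to 0.247 for Aqp4, -0.0655 to 0.142 for Gjb6, -0.041 to 0.0265 for Id2, -0.180 to 0.119 for Id4, -0.161 to 0.0372 for S100b, -0.0287 to 0.168 for Aldh1l1, -0.0248 to 0.139 for Acsbg1, -0.197 to 0.119 for Dio2 and -0.0376 to 0.126 for Htra1.

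With the replicate block, 4 members had an unadjusted p under 0.05 (limma), beside 1660 of all 13004 genes, and 0 genes were called. Deviations of same-numbered libraries correlated by -0.185, -0.072, 0.2 and -0.017, and those of libraries with unlike numbers by -0.217 to 0.191. These values cannot decide whether the numbers pair the libraries, since marker levels of other cells and regions also varied between libraries. Unknown depth limits what low values such as Vim can show.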
